A study of Mus musculus with 4 samples.

Results

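Cytosolic and mitochondrial heat shock proteins were followed in 4 stable lines of 3T3-L1, a mouse preadipocyte line that turns into fat cells under a hormone mixture. The 9 named genes were Hspa8, Hsph1, Dnaja1, Dnajb1, Hsp90aa1, Hsp90ab1 and Hspb1 for the cytosol and Hspd1 and Hspe1 for mitochondria. They were found by matching the RefSeq identifier of each row to its gene symbol, and 8 of the 9 were measured among 13085 genes in all. Of those 8, the cytosol accounts for 6 and mitochondria for 2. The transcript level of Hspb1 was not analysed here, and only its promoter window is described.

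FLAG cells carried the empty FLAG vector and FLAG-CACUL1 cells overexpressed CACUL1, a repressor of the fat cell regulator PPARγ, and both were selected with G418. A hairpin against luciferase was carried by sh-Luc cells and one against CACUL1 by sh-CACUL1 cells, and both were selected with hygromycin B. All lines were grown from drug-resistant colonies after transfection. All of them received 5 µM rosiglitazone, 0.5 mM IBMX, 1 µg/ml dexamethasone and 5 µg/ml insulin, and total RNA was taken after 8 days of differentiation. There was 1 sample per line, so no difference below has a replicate check and none was tested. The question put to each member was whether its transcript level differed with more CACUL1 (FLAG-CACUL1 against FLAG) or with less (sh-CACUL1 against sh-Luc).

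Heat shock proteins are chaperones, which hold, fold or take apart other proteins. In the cytosol HSP70 binds unfolded clients, J-domain proteins bring clients to it and start its ATP cycle, HSP110 proteins exchange its nucleotide, and HSP90 receives a set of clients such as steroid receptors and kinases. In mitochondria HSP60 and its lid HSP10 form a folding chamber for imported proteins. Heat shock factor 1 (HSF1) drives many of these genes under stress by binding heat shock elements, runs of a short unit in alternating orientation. Fat cell differentiation is known for an increase in mitochondria.

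Heat shock elements were sought in the promoters because they are the known control of many of these genes. The search took GAA and TTC in alternation, with 2 bases between neighbours, which reads the same on both strands. Each RefSeq window spans 250 bases before and 50 after an annotated start on GRCm38.p6, and 6 of the 9 named genes had windows, 11 in all. Hspa8, Hsp90aa1 and Hsp90ab1 had no window. Runs of at least 2 units lay in 15.1% of 32851 windows, runs of at least 3 in 0.603%, and runs of 4 or more in 0.0244%, which is 8 windows.

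The mitochondrial pair held the longest run. Hspd1 (minus strand, chr1:55077833-55088243) and Hspe1 (plus strand, chr1:55088148-55091317) lie head to head, and a run of 4 units sits between the Hspe1 start and the second annotated Hspd1 start. It covers bases -89 to -72 from the Hspe1 start and -144 to -127 from that Hspd1 start, within the span of the Hspd1 gene as its first annotated start defines it. The 30 bases around it, chr1:55088053-55088082, are shown on the strand of each gene with the run in capitals, since both mitochondrial members share them:
Hspe1, plus strand: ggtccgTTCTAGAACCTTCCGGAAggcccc
Hspd1, minus strand: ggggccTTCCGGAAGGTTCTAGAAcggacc

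Among the cytosolic members with a window, Hsph1 (minus strand, chr5:149616843-149636498) held 3 units and Dnaja1 (plus strand, chr4:40722468-40734965) held 2. In Hsph1 the run covers bases 16 to 28 after the later start, inside an exon that GENCODE M21 annotates as untranslated. In Dnaja1 it covers bases -124 to -117 from the first start, and the other 2 starts had no run. The 30 bases around each, chr5:149636279-149636308 and chr4:40722333-40722362, are shown on the strand of the gene because these are the cytosolic members that passed the 2-fold cut-off:
Hsph1, minus strand: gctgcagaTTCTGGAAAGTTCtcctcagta
Dnaja1, plus strand: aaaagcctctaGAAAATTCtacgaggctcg

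The whole 250 bases before the first Dnaja1 start, chr4:40722218-40722467, overlap an exon of the unnamed gene model Gm6297 on the opposite strand. They are shown to place the short run, in capitals, in its surroundings:
Dnaja1, upstream: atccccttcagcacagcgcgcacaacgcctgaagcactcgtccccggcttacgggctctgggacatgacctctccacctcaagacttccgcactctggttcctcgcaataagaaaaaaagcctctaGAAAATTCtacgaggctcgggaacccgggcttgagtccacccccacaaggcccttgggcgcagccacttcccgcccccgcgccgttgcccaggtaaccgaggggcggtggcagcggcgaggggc

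Both Dnajb1 windows (plus strand, chr8:83608175-83612653) held no run of 2 units, which says only that these letters are not in 300 bases. The single window of Hspb1 held 2 runs of 2 units. These matches describe the sequence and are not evidence of binding in these cells.

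**Figure D1:**
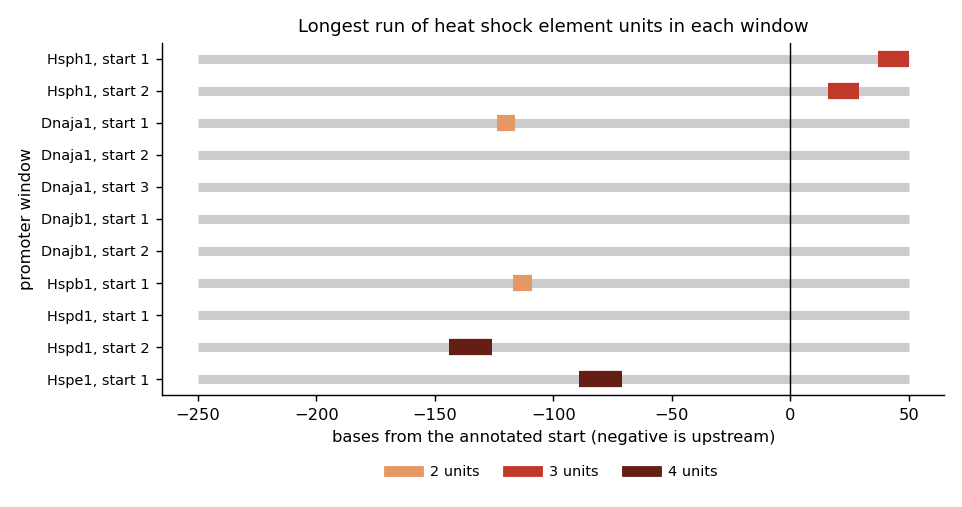
Longest run of heat shock element units in the 11 promoter windows of 6 named genes, drawn as distance in bases from the annotated start, with starts numbered in the order of the table for each gene. Grey bars are the windows and coloured blocks the runs of 2, 3 or 4 units, of which the 4-unit block appears in Hspe1 and in the second start of Hspd1.

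Levels are FPKM, fragments counted per transcript and corrected for its length and for the depth of the sample. A difference is the difference in log2(FPKM + 1), where 1 is a doubling, and a gene was called at 2-fold or more, the cut-off of the study. The steps of the low FPKM values put the depth near 14400000 fragments for FLAG, 14200000 for FLAG-CACUL1, 23900000 for sh-Luc and 14900000 for sh-CACUL1. At that depth each member value rested on an estimated 460 to 60700 fragments, and the intervals given below cover counting error only. The median of the 9563 genes with at least 1 FPKM in all lines differed by 0.13 in FLAG-CACUL1 against FLAG and by -0.43 in sh-CACUL1 against sh-Luc, so the differences of the members, and the calls of the other chaperone genes, are also given relative to this median gene. Cacul1 itself was at 9.61 FPKM in FLAG and 11.8 in FLAG-CACUL1, and at 10.2 in sh-Luc against 5.39 in sh-CACUL1, a difference of 0.27 with overexpression and of -0.82 with depletion, neither of them 2-fold.

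The labels call the cells preadipocytes, and the summed FPKM of 10 adipocyte markers was 8479 in FLAG and 884 in FLAG-CACUL1, and 1689 in sh-Luc against 17640 in sh-CACUL1. All 10 markers fell with overexpression and all 10 rose with depletion. The 9 measured preadipocyte and fibroblast markers summed to 5023, 7964, 3263 and 670 FPKM in the same order, with Dlk1 at 0.22 and Thy1 at 0.66 FPKM in sh-Luc. Col1a1 and Col3a1 made up most of each sum, and single markers went both ways. With overexpression 6 of the 9 were called higher and 1 lower, beside 7.51% and 7.22% of all genes. With depletion 3 were called higher (Dlk1, Thy1 and Ly6c1) and 5 lower, beside 4.94% and 16.4%. Of the leukocyte markers Cd68 was at 16.2 FPKM in FLAG and between 0.96 and 1.44 in the other lines, the 4 proliferation markers summed to 50.8 FPKM in sh-Luc and to between 16.1 and 19.1 in the others, and the 1 measured endothelial marker stayed at or below 0.301 FPKM. The part of these markers in the results below was not tested, and in such bulk samples fewer cells of a type and less RNA per cell cannot be told apart.

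With CACUL1 depleted, all 6 cytosolic members were at lower levels in sh-CACUL1 than in sh-Luc, by -0.53 to -1.47. Both mitochondrial members were at higher levels, by 0.45 and 1.05. Of the 9563 genes, 26.5% were at higher levels in sh-CACUL1 than in sh-Luc, so most genes were lower there too. Relative to the median gene the cytosolic differences were -0.10 to -1.04 and the mitochondrial ones 0.88 and 1.48, still of opposite sign. On that scale Hspa8, Dnaja1 and Hsp90ab1 lay near the median gene, at -0.10, -0.16 and -0.17 (percentiles 43.2, 39.7 and 39.1). Quantile normalization and median-of-ratios scaling kept the signs, and the latter put Hspa8 at -0.06 and Dnaja1 and Hsp90ab1 at -0.13. Against the other control, FLAG, the values of Hspa8, Hsph1 and Dnaja1 in sh-CACUL1 were higher, by 0.26, 0.19 and 1.01. With CACUL1 overexpressed the compartments did not separate. In that comparison 4 cytosolic members were at higher levels in FLAG-CACUL1 than in FLAG, and 2 cytosolic and both mitochondrial members at lower ones. Of the 9563 genes, 58.2% were at higher levels in FLAG-CACUL1 than in FLAG. Against the other control, sh-Luc, the 4 were lower too, with Hspa8 at -0.25, Hsph1 at -0.85, Dnaja1 at -0.32 and Hsp90aa1 at -0.07, and Hspe1 was at 0.15.

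Few members passed the 2-fold cut-off. In FLAG-CACUL1 against FLAG, 1 of 8 members rose, Dnaja1, where 7.51% of all 13085 genes rose, and 0 of 8 fell, where 7.22% of all genes did. In sh-CACUL1 against sh-Luc, 1 of 8 rose, Hspd1, where 4.94% of all genes rose, and 1 of 8 fell, Hsph1, where 16.4% of all genes did. With 8 members 1 call is the smallest share above 0, and nothing is read from it. The surplus of genes that fell with depletion, 2141 against 647 that rose, turned under other scalings, to 1084 against 1178 with quantile normalization and to 975 against 1231 with median-of-ratios scaling. Over the 8 measured members the median difference was -0.02 with overexpression and -0.59 with depletion, beside 0.13 and -0.43 for the median gene.

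**Figure D2:**
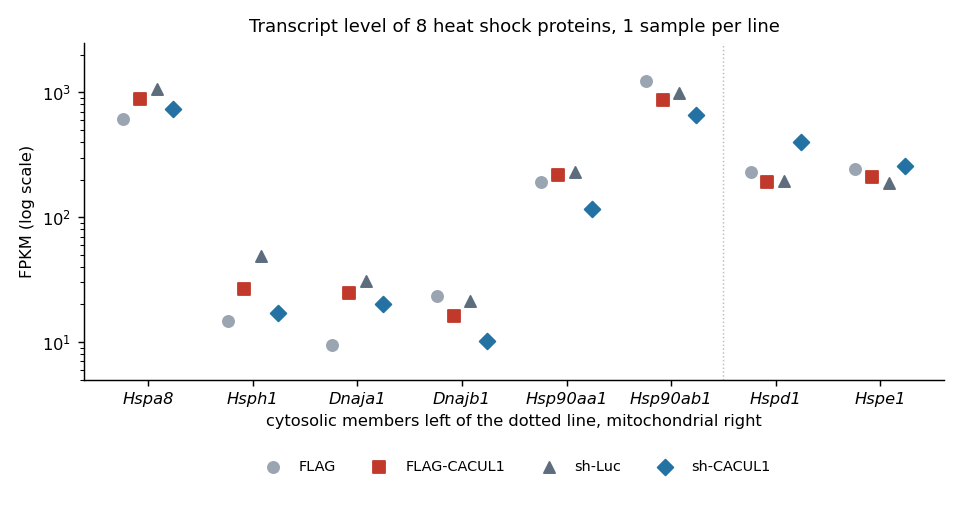
FPKM of the 8 measured members on a log axis in the 4 lines, with 1 point per sample and cytosolic genes left of the dotted line. Hspa8 and Hsp90ab1 lie between 614 and 1232 FPKM in every line, Hsph1, Dnaja1 and Dnajb1 below 50, and Hspd1 is highest in sh-CACUL1.

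**Figure D3:**
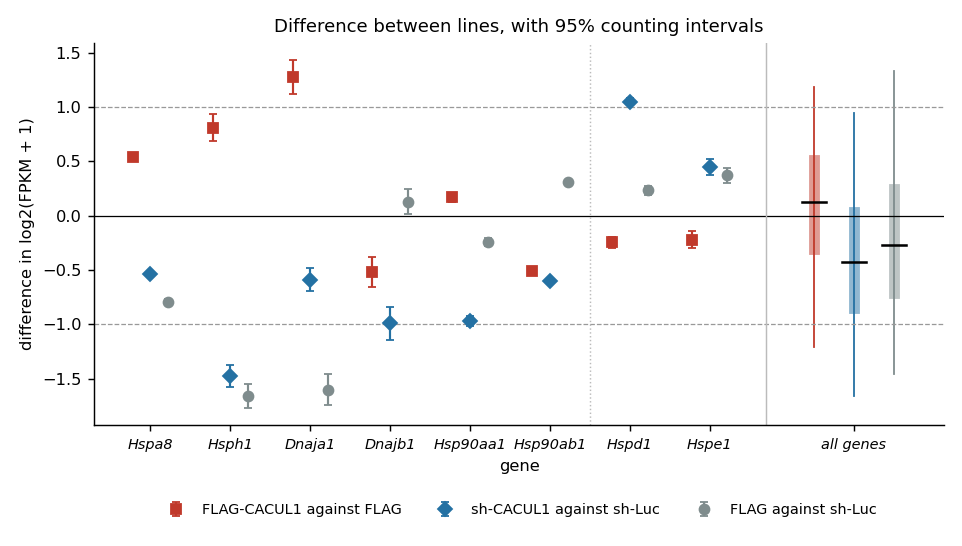
Difference in log2(FPKM + 1) of each member in 3 comparisons, with 95% counting intervals, and at the right the median (black line), middle 50% (thick bar) and middle 90% (thin line) of 9563 genes. Dashed lines mark 2-fold, which Dnaja1 passed with overexpression, Hsph1 and Hspd1 with depletion, and Hsph1 and Dnaja1 between the controls.

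Hspa8 (plus strand, chr9:40801276-40805202) encodes the constitutive cytosolic HSP70, the hub of the cytosolic folding cycle. It was at 614 FPKM in FLAG and 891 in FLAG-CACUL1, and at 1062 in sh-Luc against 733 in sh-CACUL1. It ranked 134th, 83rd, 49th and 80th of 13085 genes. The controls were the lowest and the highest line, and both CACUL1 lines lay between them. The difference was 0.54 with overexpression (counting interval 0.51 to 0.56) and -0.53 with depletion (-0.56 to -0.51). Relative to the median gene these became 0.41 and -0.10, so with depletion Hspa8 lay at percentile 43.2 of the 9563 genes.

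Hsph1, the HSP110 protein that exchanges the nucleotide of HSP70, was at 14.8 FPKM in FLAG and 26.7 in FLAG-CACUL1, and at 48.9 in sh-Luc against 17.0 in sh-CACUL1. The lines stood in the same order as for Hspa8, over a wider range of 3.31-fold from lowest to highest. Hsph1 fell with depletion, with a difference of -1.47, to 0.347 of the sh-Luc FPKM (counting interval of the difference -1.57 to -1.37). Relative to the median gene that difference was -1.04, at percentile 6.81 of the 9563 genes. With overexpression it was 0.81, or 0.68 relative to the median gene. Its transcripts shared none of their 31-base stretches with another gene of GENCODE M21.

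Dnaja1 encodes a J-domain protein of type A, which delivers clients to HSP70. It was at 9.53 FPKM in FLAG and 24.5 in FLAG-CACUL1, and at 30.96 in sh-Luc against 20.3 in sh-CACUL1. FLAG stood apart at the low end, and the other lines kept the order seen for Hspa8 and Hsph1. Dnaja1 rose with overexpression by 1.28, or 2.57-fold in FPKM (counting interval of the difference 1.12 to 1.43), and by 1.15 relative to the median gene, at percentile 96.0. With depletion the difference was -0.59, and -0.16 relative to the median gene. FLAG-CACUL1 set against the other control, sh-Luc, gave -0.32, so the direction of the Dnaja1 call rests on the FLAG sample.

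Dnajb1 encodes a J-domain protein of type B, also called HSP40 and known to rise under heat shock. It was at 23.5 FPKM in FLAG and 16.1 in FLAG-CACUL1, and at 21.4 in sh-Luc against 10.3 in sh-CACUL1. Both CACUL1 lines lay below both controls, unlike for the other 3 members of the HSP70 cycle. The difference was -0.52 with overexpression (counting interval -0.66 to -0.38) and -0.99 with depletion (-1.14 to -0.84), just inside the cut-off. These were -0.65 and -0.56 relative to the median gene. Neither scaling nor the choice of control turned these signs.

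The order FLAG, sh-CACUL1, FLAG-CACUL1, sh-Luc from low to high was shared by Hspa8, Hsph1 and Dnaja1, and 10.8% of the 9563 genes had it. For Hspa8, Hsph1 and Dnaja1 the controls differed by more than either CACUL1 line differed from its own control. FLAG against sh-Luc gave -0.79 for Hspa8, -1.66 for Hsph1 and -1.60 for Dnaja1. Hsph1 and Dnaja1 were the 2 of 8 members that were called lower, where 12.4% of all genes were. No member was called higher in FLAG than in sh-Luc, where 8.58% of all genes were. The controls differ in vector and drug, and FLAG is also the control of FLAG-CACUL1 and sh-Luc that of sh-CACUL1, so the 3 comparisons share samples. The summed adipocyte markers were at higher levels in FLAG and sh-CACUL1 than in the other lines, and Hspa8, Hsph1, Dnaja1 and Hsp90aa1 were at lower levels in those 2 lines, as were 34.6% of the 9563 genes.

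Hsp90aa1 (minus strand, chr12:110691036-110696395) and Hsp90ab1 (minus strand, chr17:45567778-45573261) encode the inducible and the constitutive cytosolic HSP90. Hsp90aa1 was at 193 FPKM in FLAG and 217 in FLAG-CACUL1, and at 229 in sh-Luc against 116 in sh-CACUL1. The first 3 lines lay close together and sh-CACUL1 stood below them. The depletion difference was -0.97 (counting interval -1.01 to -0.93), or -0.54 relative to the median gene. With overexpression it was 0.17, or 0.04 relative to the median gene, and against sh-Luc it was -0.07.

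Hsp90ab1 was at 1232 FPKM in FLAG and 867 in FLAG-CACUL1, and at 991 in sh-Luc against 654 in sh-CACUL1. It ranked 49th, 88th, 56th and 94th of 13085 genes. Both CACUL1 lines lay below both controls, as for Dnajb1 and for 16.5% of the 9563 genes. The differences were -0.51 with overexpression and -0.60 with depletion, or -0.64 and -0.17 relative to the median gene. The ratio of Hsp90aa1 to Hsp90ab1 within a line does not change when all values of that line are scaled by 1 factor. It was 0.156 in FLAG and 0.251 in FLAG-CACUL1, and 0.231 in sh-Luc against 0.178 in sh-CACUL1. The inducible form was thus the minor one in every line, and its ratio was higher in FLAG-CACUL1 than in either control. In sh-CACUL1 the ratio was lower than in sh-Luc but higher than in FLAG, so that direction depends on the control.

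Hspd1 encodes HSP60, the barrel of the mitochondrial chaperonin. It was at 229 FPKM in FLAG and 193 in FLAG-CACUL1, and at 194 in sh-Luc against 404 in sh-CACUL1. The first 3 lines lay close together and sh-CACUL1 stood above them. Hspd1 rose with depletion by 1.05, or 2.08-fold in FPKM (counting interval of the difference 1.02 to 1.09), which is close to the cut-off. Relative to the median gene the difference was 1.48, at percentile 95.9, and against FLAG it was 0.82. With overexpression it was -0.25, or -0.38 relative to the median gene.

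Hspe1 encodes HSP10, the lid of the same chamber. It was at 244 FPKM in FLAG and 209 in FLAG-CACUL1, and at 188 in sh-Luc against 258 in sh-CACUL1. These values span 1.37-fold, the narrowest range of the 8 members. The difference was 0.45 with depletion (counting interval 0.38 to 0.52) and -0.22 with overexpression (-0.30 to -0.14), or 0.88 and -0.35 relative to the median gene. For both chaperonin genes FLAG and sh-CACUL1, the lines with the higher adipocyte marker sums, lay above the other lines, as did 9.06% of the 9563 genes. The 4-unit run shown above lies between the Hspe1 start and the second annotated Hspd1 start, and the 2 genes differed by unequal amounts between the hairpin lines. The ratio of Hspd1 to Hspe1 was 0.939 in FLAG and 0.922 in FLAG-CACUL1, and 1.03 in sh-Luc against 1.57 in sh-CACUL1.

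Together the 8 members made up 0.542% of the summed FPKM in FLAG and 0.516% in FLAG-CACUL1, with 0.665% in sh-Luc against 0.594% in sh-CACUL1. The 6 cytosolic members took 0.573% in sh-Luc and between 0.417% and 0.442% in the other lines, and the chaperonin pair took 0.178% in sh-CACUL1 and between 0.0849% and 0.1% in the others. The cytosolic share is mostly Hspa8 and Hsp90ab1, and single members had other outlying lines, such as Dnaja1 in FLAG and Hsp90aa1 in sh-CACUL1. The mitochondrial share in sh-CACUL1 rests mainly on Hspd1, since Hspe1 was at 258 FPKM there and at 244 in FLAG. Among the other ratios, Dnaja1 to Dnajb1 was 0.405 in FLAG and 1.52 in FLAG-CACUL1, and 1.45 in sh-Luc against 1.97 in sh-CACUL1, so the type B protein was the more abundant transcript in FLAG alone. Hsph1 to Hspa8 was 0.0241, 0.030, 0.0461 and 0.0232 in the same order.

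**Figure D4:**
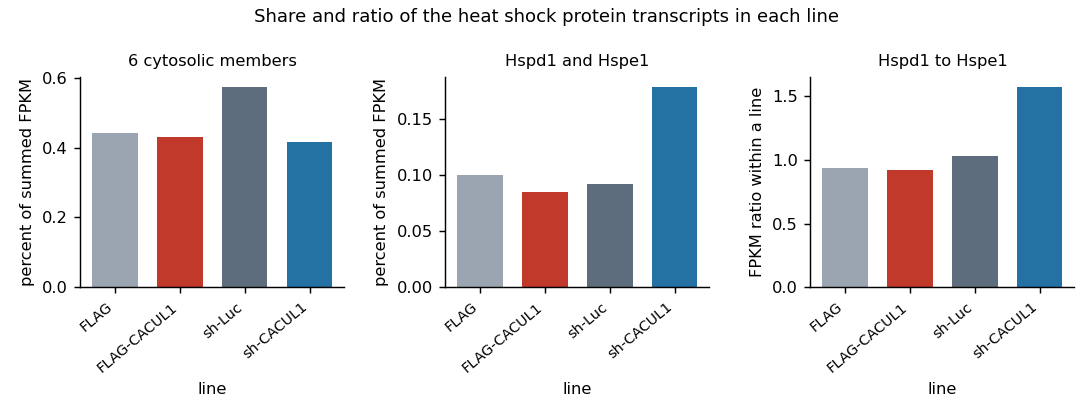
Percent of summed FPKM taken by the 6 cytosolic members and by Hspd1 with Hspe1, and the FPKM ratio of Hspd1 to Hspe1, as 1 bar per line from 0. The cytosolic share is highest in sh-Luc (0.573%), and the mitochondrial share (0.178%) and the ratio (1.57) are highest in sh-CACUL1.

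Several of these levels may carry fragments of near-identical copies, mostly pseudogenes, and how the counting placed such fragments is not given in the sources used here. Of the 31-base stretches in the transcripts of a member, other genes of GENCODE M21 also held 77.2% for Hspa8, 62.9% for Hsp90aa1, 55.8% for Hspd1, 48.1% for Hspe1, 20.2% for Dnaja1, 16.6% for Hsp90ab1 and 0.441% for Dnajb1. The levels of Hspa8, Hsp90aa1, Hspd1 and Hspe1 are the most open to this, by an amount that these percentages do not give. The largest single partner was the gene model Gm15459 for Hspa8 and Hspd1-ps3, a pseudogene, for Hspd1.

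Among the 4 regulators on the list 1 gene fell past the cut-off with depletion, beside 16.4% of all genes. Hsf1, which encodes HSF1, was at 10.3 FPKM in FLAG and 14.4 in FLAG-CACUL1, and at 29.8 in sh-Luc against 13.8 in sh-CACUL1. Hsf1 stood highest in sh-Luc and lowest in FLAG, in the order of lines seen for Hspa8, Hsph1 and Dnaja1 and for 10.8% of the 9563 genes. A link of these levels to Hsf1 was not tested. The Hsf1 difference was -1.05 with depletion and 0.44 with overexpression. The depletion difference was -0.62 relative to the median gene, under the cut-off. Of the 4 heat shock factors and their binding protein on the list, no other was called in either comparison, and the list medians were 0.42 with overexpression and -0.60 with depletion, or -0.31 and 0.16 against the other control. The stress-inducible HSP70 genes were at low levels throughout. Hspa1a was at 3.66 FPKM in FLAG and 6.03 in FLAG-CACUL1, and at 5.26 in sh-Luc against 2.61 in sh-CACUL1, and Hspa1b was at 5.33, 7.93, 7.66 and 4.55 in the same order. Neither was called, with differences of 0.59 and 0.50 for overexpression and of -0.79 and -0.64 for depletion.

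Of the 9 other cytosolic HSP70 and HSP110 genes, 1 fell with overexpression, beside 7.22% of all genes, and with depletion 2 rose and 3 fell, beside 4.94% and 16.4%. Of those 3 genes, 2 stayed past the cut-off relative to the median gene. Hspa4l, an HSP110 relative, fell in both comparisons, with differences of -1.42 for overexpression and -1.99 for depletion, from 8.88 to 2.71 FPKM and from 8.12 to 1.30 FPKM. The HSP70 relatives Hspa12b and Hspa12a went opposite ways with depletion, at -1.74 and 1.79, although Hspa12a reached only 2.61 FPKM. Of 19 further J-domain genes none rose in either comparison, 2 fell with overexpression, beside 7.22% of all genes, and 4 fell with depletion, beside 16.4%. These were Dnajc16 (-1.55) and Dnajc21 (-1.43) with overexpression, and Dnajc13 (-1.32), Dnaja4 (-1.26) and Dnajb4 (-1.23) led with depletion. None of the 4 depletion calls stayed past the cut-off relative to the median gene, with Dnajc13 at -0.89, Dnaja4 at -0.83 and Dnajb4 at -0.80. The list medians were 0.34 and 0.40 with overexpression and -0.79 and -0.53 with depletion, for the HSP70 and the J-domain list in that order. Against the other control the overexpression medians were 0.04 and -0.12, so that of the J-domain list turned.

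The cofactors of HSP70 and HSP90 gave few calls. Of 9 HSP70 cofactors, 1 fell and 0 rose with depletion, beside 16.4% and 4.94% of all genes. The 1 that fell was St13, which encodes a protein that stabilises HSP70 bound to its client. It went from 168 to 78.8 FPKM, a difference of -1.08, or -0.65 relative to the median gene. On that scale Bag4 passed the cut-off upward, at 1.36. The list medians were 0.15 and -0.41, and the first turned to -0.01 against the other control and the second to 0.06 with median-of-ratios scaling. Of 20 HSP90 cochaperones, 4 rose with overexpression and 0 fell, beside 7.51% and 7.22% of all genes, and 3 fell with depletion and 0 rose, beside 16.4% and 4.94%. The medians of this list were 0.34 and -0.38, and they turned against the other control, to -0.19 and 0.01, the second also with median-of-ratios scaling, to 0.08. Ptges3, which encodes the cochaperone p23, rose with overexpression from 43.1 to 110 FPKM (1.33) and fell with depletion from 82.7 to 35.5 FPKM (-1.20). Chordc1, whose window held 1 of the 8 runs of 4 units, rose with overexpression from 6.81 to 16.9 FPKM (1.19), and Tomm34 from 8.56 to 19.2 FPKM (1.08). Beside Ptges3, Rpap3 (-1.09) and Sugt1 (-1.04) fell with depletion. These 3 depletion calls were all under the cut-off relative to the median gene (Ptges3 -0.77, Rpap3 -0.66, Sugt1 -0.61), and of the 4 overexpression calls 2 stayed past it, Ptges3 and Chordc1. On that scale Fkbp5 passed the cut-off upward with depletion, at 1.41. Against sh-Luc, FLAG was called lower for 7 of the 20 cochaperones, beside 12.4% of all genes. Chordc1 at -1.33 and Tomm34 at -1.06 were among the 7.

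The small heat shock proteins, which hold unfolded clients without ATP, gave single calls in different directions. Of the 6 measured beside Hspb1, 1 rose and 1 fell with overexpression, beside 7.51% and 7.22% of all genes. Hspb8 rose from 10.3 to 27.3 FPKM (1.32) and Hspb6 fell from 33.3 to 12.1 FPKM (-1.39). In sh-Luc Hspb8 was at 32.99 FPKM and Hspb6 at 5.245, so against that control both directions turned. Relative to the median gene Hspb11 also passed the cut-off downward with overexpression, at -1.01. With depletion 1 of the 6 fell and 0 rose, beside 16.4% and 4.94% of all genes. Cryab fell from 127 to 22.7 FPKM, a difference of -2.44, or -2.01 relative to the median gene. The medians of the 6 genes were -0.26 with overexpression and -0.43 with depletion.

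In mitochondria most of the other chaperones and proteases stood on the same side as Hspd1 and Hspe1 when each line was set against its own control. Of 20 such genes, 14 were at higher levels with depletion, where 26.5% of the 9563 genes were, and 5 were at higher levels with overexpression, where 58.2% were. Against the other control the medians of the list were -0.03 for sh-CACUL1, a turn of sign, and -0.10 for FLAG-CACUL1. Few genes were called. With depletion Clpx and Afg3l2, which encode subunits of mitochondrial proteases, rose by 1.07 and 1.00 and none fell, beside 4.94% and 16.4% of all genes. With overexpression Dnlz rose (1.10, or 0.97 relative to the median gene) and Clpx fell (-1.39), beside 7.51% and 7.22%. Relative to the median gene 4 of the 20 passed the cut-off upward with depletion and 0 downward. With overexpression 0 passed it upward on that scale and 4 downward. The share of all genes past it on that scale was not counted. Against their own controls the list medians were -0.41 with overexpression and 0.19 with depletion, beside 0.13 and -0.43 for the median gene. Hspa9, the mitochondrial HSP70, was at 454 FPKM in FLAG and 352 in FLAG-CACUL1, and at 194 in sh-Luc against 245 in sh-CACUL1, and Trap1, the mitochondrial HSP90, at 49.9, 37.9, 64.5 and 65.7. Unlike Hspd1, Hspa9 was highest in FLAG.

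**Figure D5:**
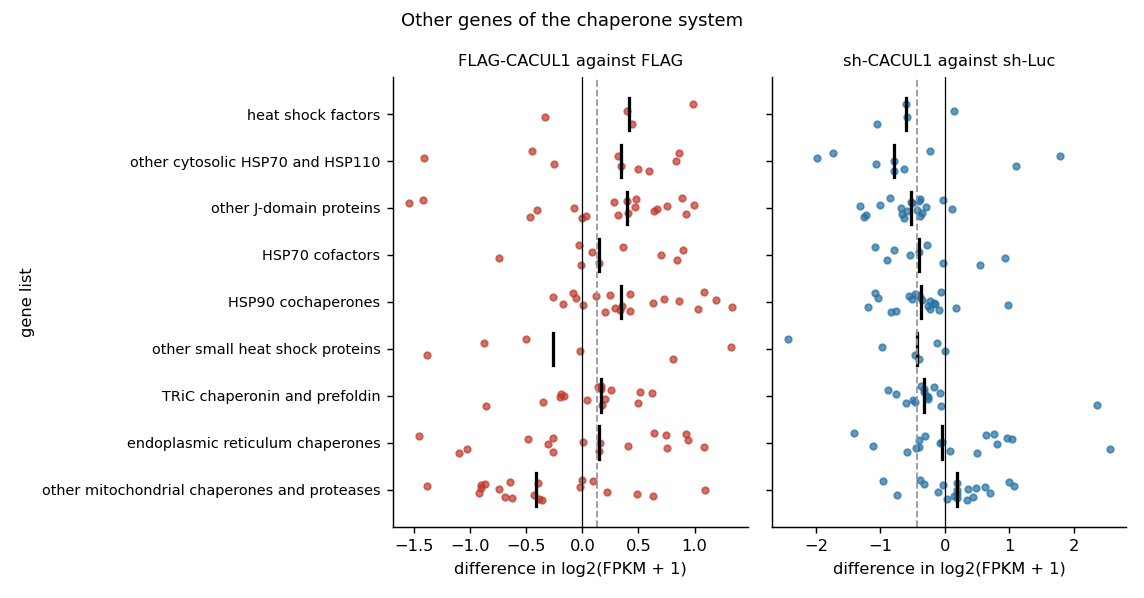
Difference in log2(FPKM + 1) of the other genes of 9 chaperone lists, 1 point per gene, with overexpression on the left and depletion on the right. Short black lines are list medians and the dashed line is the median gene (0.13 and -0.43), and the other mitochondrial genes have medians of -0.41 and 0.19.

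The members did not follow 1 pattern. Likeness was taken as the Euclidean distance between log2(FPKM + 1) values centred per gene, over the 4 lines. The closest pair was Dnajb1 with Hsp90ab1, at 0.28, the chaperonin partners lay 0.62 apart, and the most distant pair was Hsph1 with Hspd1, at 1.94. The genes nearest to Hspd1 were Pex19 (0.05), Decr1 (0.11) and Me1 (0.12). Those nearest to Hsph1 were Fzd2 (0.11), Pld1 (0.12) and Oaz1-ps (0.13), and those nearest to Dnaja1 were Dgcr8 (0.10), Ralgds (0.11) and 2810013P06Rik (0.11). Every other member had closer neighbours, led by Nisch for Hspa8 (0.02), Ccnt1 for Dnajb1 (0.03), Trak2 for Hsp90aa1 (0.04), Ube4b for Hsp90ab1 (0.04) and Rabepk for Hspe1 (0.02). With 4 points many genes come close, and the distances are a description.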

How the data were processed

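Sequenced RNA of 4 stable 3T3-L1 lines after 8 days of differentiation was analysed, 1 sample per line, grouped by the labels. The authors deposited FPKM values for 13110 rows of RefSeq transcripts, made by a company, and per the labels on mm10. The aligner, the FPKM program, the handling of copies and any filter are not given in the sources used here. Rows were joined to symbols through GENCODE M21 and the RefSeq table of GRCm38.p6 (47 rows stayed without one), and 50 rows of 25 symbols were summed. Differences were taken on log2(FPKM + 1), which understates the change of low genes, and called at 2-fold without a test. Fragments per library were estimated from the spacing of low FPKM values, and the 95% intervals treat the estimated fragments as Poisson counts. Named were all members, the called genes of each list at 1 FPKM or more, up to the 3 largest, 6 fixed chaperones, the 3 nearest patterns and Cacul1. Members and lists were chosen with earlier results of these data known. There were 10 alternatives. The code was tested on simulated data. Python 3.11.15, numpy 2.4.6, pandas 2.3.3, scipy 1.17.1 and matplotlib 3.10.9 were used.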

Additional observations from a re-analysis of the deposited data

How the results depend on the processing

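No paired analysis was possible because each line had 1 sample, and none of these values was tested. The depth limits no member, whose values rest on 460 fragments or more. Of 272 further values for single members and list medians, 22 turned sign, 8 of members and 14 of lists. All 8 member turns and 9 of the list turns came against the other control, 4 list turns with median-of-ratios scaling and 1 with quantile normalization. Of the members that turned, 2 had been called, Dnaja1 with overexpression and Hsph1 with depletion. The cause of these shifts was not tested beyond what each setting changes by construction. Settings not named for a count below kept its size within 1.5 times, which does not say that the same genes were called.

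With overexpression, a pseudocount of 0.1 gave 1786 genes higher, and no pseudocount 2192 higher and 1583 lower. The members' median was -0.16 with median-of-ratios scaling and -0.22 against the other control, where 0 members were called higher and Dnaja1 was at -0.32. At 1.5-fold 2 members and 2621 genes were higher and 1873 genes lower, and at 3-fold 0 members and 283 genes higher and 380 lower.

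With depletion, 2 members were lower with a pseudocount of 0.1 (1085 genes higher) and with none (1362 genes higher, 3437 lower). The members' median was -0.44 with quantile normalization (1178 genes higher, 1084 lower), -0.13 with median-of-ratios scaling (1231 and 975) and 0.13 against the other control (975 higher), where Hsph1 was at 0.19. There 1 member was called higher and 1 lower, as against sh-Luc, but they were Dnaja1 (1.01) and Dnajb1 (-1.12), and Hspd1 was at 0.82. At 1.5-fold 5 members were lower, with 1322 genes higher and 4487 lower, and at 3-fold 0 members passed in either direction, with 252 genes higher and 684 lower.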

Other observations

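The chaperones of the endoplasmic reticulum fold secreted and membrane proteins, and their genes moved in both directions. Hspa5, which encodes the HSP70 of that compartment (BiP), was at 1441 FPKM in FLAG and 670 in FLAG-CACUL1, and at 386 in sh-Luc against 546 in sh-CACUL1, and fell with overexpression, a difference of -1.11 in log2(FPKM + 1). P4hb, a disulfide isomerase, fell with overexpression from 2529 to 917 FPKM (-1.46). FLAG was the highest line for both genes, and within a line the ratio of Hspa5 to Hspa8, chosen after its values were seen, was 2.35 in FLAG and 0.751 in FLAG-CACUL1, and 0.364 in sh-Luc against 0.744 in sh-CACUL1. Dnajb9, a J-domain partner of BiP, rose with depletion from 19.1 to 118 FPKM (2.57) and fell with overexpression from 55.1 to 26.4 FPKM (-1.03). Serpinh1, the collagen chaperone HSP47, fell with depletion from 418 to 157 FPKM (-1.41). Dnajc3 rose with overexpression (1.09) and Dnajc10 fell with depletion (-1.11). The overexpression directions of Hspa5, P4hb, Dnajb9 and Dnajc3 turned against the other control, sh-Luc. There P4hb was at 616.4 FPKM, and Dnajc3 at 20.15 against 19.37 in FLAG-CACUL1. Relative to the median gene Dnajc3 (0.96), Dnajc10 (-0.68) and Serpinh1 (-0.98) were under the cut-off. On that scale 6 of the 17 genes passed it upward and 0 downward with depletion. With overexpression 0 passed it upward and 3 downward. The share of all genes past it on that scale was not counted. Of the 17 genes of this list 2 rose and 2 fell with depletion, beside 4.94% and 16.4% of all genes. With overexpression 1 rose and 3 fell, beside 7.51% and 7.22%. The list medians were -0.05 with depletion and 0.14 with overexpression. The first turned to 0.10 with quantile normalization, to 0.42 with median-of-ratios scaling and to 0.01 against the other control.

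Cct2, a subunit of the cytosolic chaperonin TRiC, rose with depletion from 151 to 779 FPKM (2.36). It was at 699 FPKM in FLAG and 790 in FLAG-CACUL1, so that sh-Luc stood apart from the other lines. Cct2 was 1 of 15 genes of the TRiC and prefoldin list, beside 4.94% of all genes that rose with depletion. No other gene of the list was called in either comparison. The medians were 0.16 with overexpression (-0.19 against the other control) and -0.32 with depletion (0.15 with median-of-ratios scaling).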
